A study of Mus musculus with 6 samples.

Results

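Interferon-stimulated genes and the regulators that switch them on were followed in whole-eye RNA of mice that lack BC027072 and of wild type mice. They form a list of 45 genes picked by symbol, with earlier results of these data known. Of these, 44 had a row in the table of 22558 genes. Ifi27 was not analysed here. All 44 passed the filter on low counts, as did 14919 genes in all. By role, 8 are receptors and transcription factors and 36 are sensors and effectors.

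The wild type group was 3 libraries of C57BL/6 eyes with no further allele, and the knockout group was 3 libraries labelled BC027072 -/-, also on C57BL/6. The design text writes C57BL/6J for the wild type. All eyes came from postnatal day 21, were kept in RNAlater, and gave total RNA for Illumina libraries. BC027072 is the mouse counterpart of human C2orf71 (PCARE), a gene of the photoreceptor outer segment and cilium in which mutations cause retinitis pigmentosa. How the null allele was made, and whether each library is a separate animal, is not given in the sources used here, and p-values cover the variation among these libraries, which may be technical.

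Interferons are secreted proteins that cells release when they sense foreign or misplaced nucleic acid. Type I interferon binds the receptor made of Ifnar1 and Ifnar2, and the kinases Jak1 and Tyk2 then activate a factor that contains Stat2 and Irf9 and binds a DNA element called the ISRE. Interferon gamma acts through another element, the GAS. The genes switched on this way cut or bind RNA, tag proteins, coat vacuoles and block viral entry and exit. In the retina, glia and microglia are known to express many of them when photoreceptors are stressed.

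The libraries held 5695530 to 21815950 fragments. BC027072 itself had 5854, 3667 and 2251 fragments in wild type and 3, 2 and 3 in knockout, so each library matched its genotype label. Lens markers summed to 53127 to 64462 counts scaled to library size (CPM) and rod markers to 17087 to 28684 CPM, so both tissues of the eye were present. Rod markers were lower in the knockout (7 of 8 passed the test as lower, 1 as higher), and in bulk tissue fewer cells of a type and less RNA per cell cannot be told apart. The sexes were unequal: the 3 wild type libraries and knockout library 2 held 5905 to 17749 Xist fragments, whereas knockout libraries 1 and 3 held 11 and 18 Xist fragments and 2047 and 2957 Y-linked fragments. Counts of calls by gene list are therefore also given with sex as a covariate for the lists in which genes were called. Of the 8 rod markers, 6 passed in that fit. The counts over all members are also given in the 4 Xist-positive libraries alone, where 1 knockout library carries the comparison. No wild type library was Xist-negative, so knockout library 2 carries the knockout difference in the sex covariate fit too. The 2 fits gave nearly the same log2 fold changes, 0.881 and 0.879 for Irf9 and 0.425 and 0.422 for Gbp2. They are not separate checks, and a call missing in them does not show the lack of a change.

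Interferon genes were, on balance, modestly higher in the knockout eye. Of the 44, 15 rose, none was called lower, and 29 did not pass (edgeR quasi-likelihood test, Benjamini-Hochberg adjusted p below 0.05). Over all 14919 genes the same test called 2.89% higher and 3.35% lower. The members were chosen with earlier results of these data known, so their share of calls is not independent of that choice. Of the 44, 27 had an unadjusted p under 0.05, DESeq2 called 13 higher and none lower (2.17% of all genes were higher), and with no filter on low counts 21 passed (2.82%). With limma on log2(FPKM + 1) and log2(FPKM + 0.1) none passed, where 0.0935% and 0.0401% of genes were called higher and 15 and 14 members had an unadjusted p under 0.05. The fold changes lay above 0 for 39 members and below 0 for 5, against 50.6% above 0 among all genes. Their median log2 fold change was 0.40, against 0.00 for all genes, and 0.36 in the Xist-positive libraries. In 22 members every knockout library lay above every wild type library, which 11.6% of all genes did, and in 1 member, Irf3, every knockout library lay below, which 11.7% of all genes did. The authors' deposited table gave a q-value below 0.05 to 19 of the 44, all higher in the knockout, where it gave one to 3.06% of the genes as higher.

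**Figure D1:**
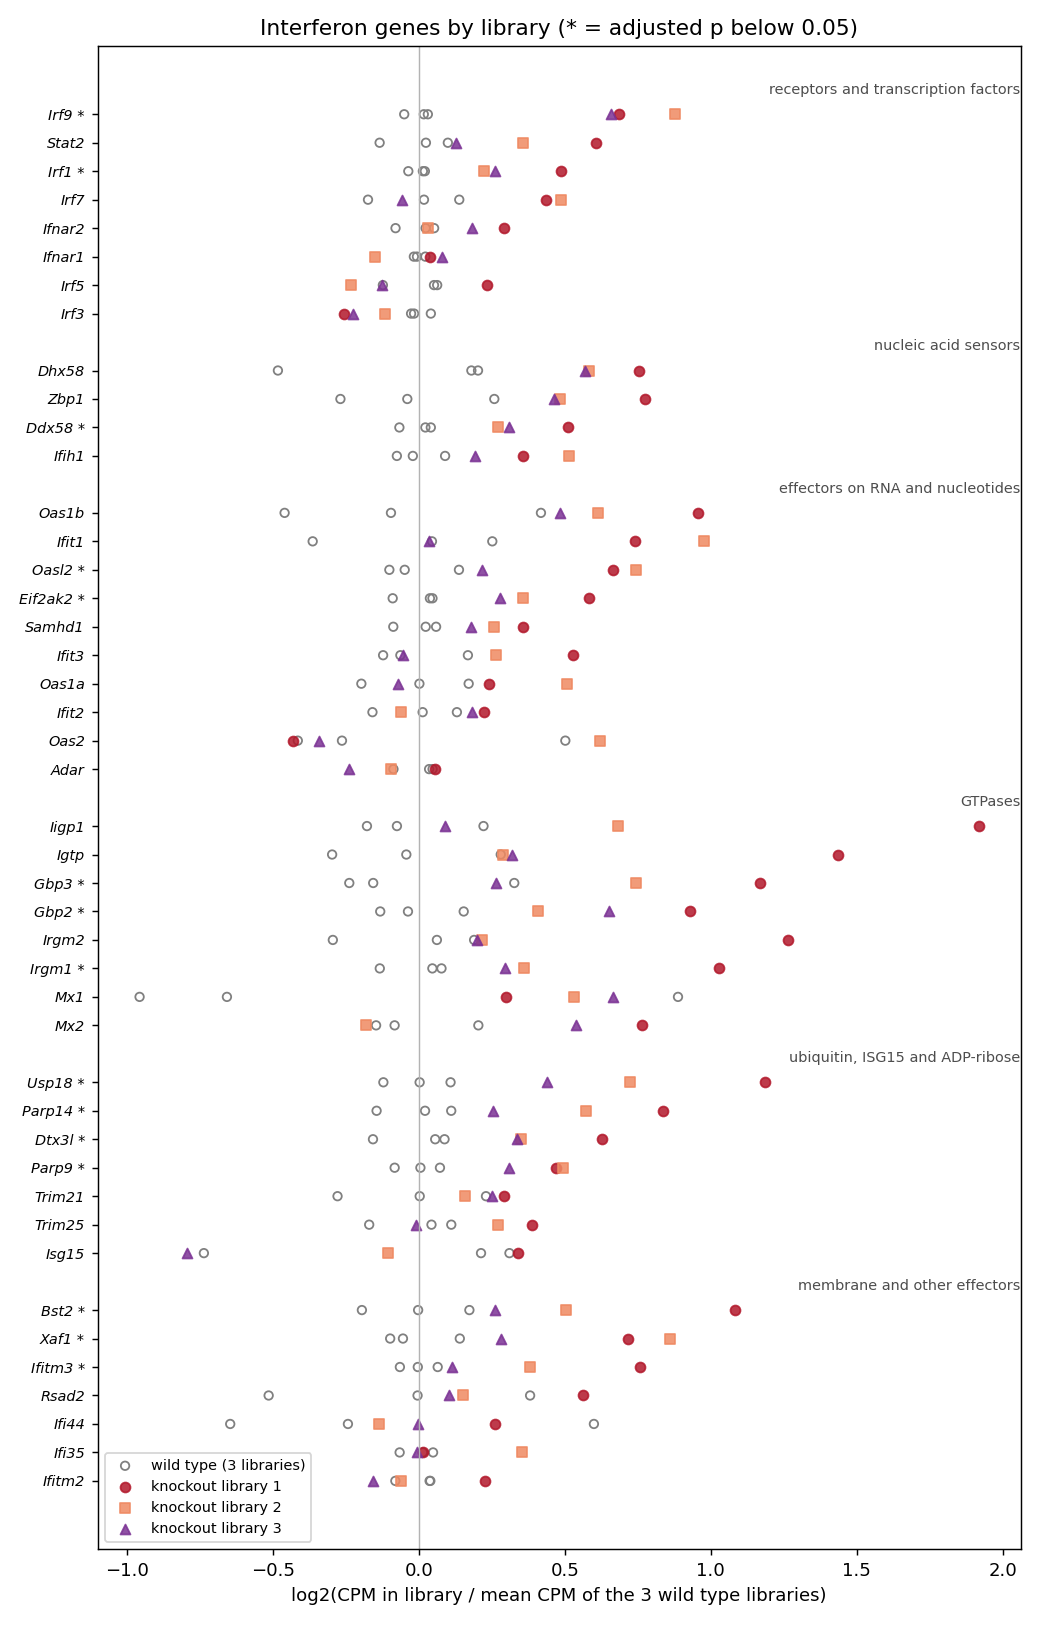
Level of each of the 44 genes in each library, as log2 of its CPM over the mean CPM of the 3 wild type libraries, ordered by role; open grey circles are the wild type libraries, filled symbols the knockout libraries, and an asterisk marks an adjusted p below 0.05. Knockout library 1 was the highest knockout library for 31 of the genes.

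The 3 knockout libraries did not carry the rise equally. Library 1 was the highest of the 3 for 31 of the 44 members, library 2 for 11 and library 3 for 2, whereas over all genes the shares were 36.3%, 31.9% and 31.8%. Among all genes called higher the shares were 44.8%, 28.3% and 26.9%. Library 3 was the lowest of the 3 for 30 members. The median log2 ratio to the wild type mean was 0.52 in library 1, 0.35 in library 2 and 0.19 in library 3. Summed over the 44 genes, the wild type libraries stood at 795, 802 and 834 CPM and the knockout libraries at 1136, 973 and 881 CPM, so the groups did not overlap. Libraries 1 and 3 were both Xist-negative and library 2 was Xist-positive, and the part of sex in this spread was not tested.

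The number of calls depended on which library was left out. Without knockout library 1, 3 members passed (Irf9, Gbp2 and Parp9; 1.83% of all genes were called higher), and the median log2 fold change was 0.26. Without wild type library 2, 6 passed (Irf9, Oasl2, Eif2ak2, Gbp2, Parp9 and Dtx3l; 1.81% of all genes). Without knockout library 2, 7 passed (Irf1, Irf9, Ddx58, Eif2ak2, Gbp2, Irgm1 and Dtx3l; 1.82% of all genes). Without knockout library 3, 23 passed, among them all 15 (2.34% of all genes). Irf9 and Gbp2 passed in each of the 6 fits that leave out 1 library. With sex as a covariate Irf9 and Oasl2 passed, where 0.61% of all genes were called higher, and in the Xist-positive libraries alone Irf9, Oasl2 and Ifit1 passed, where 0.619% were.

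**Figure D2:**
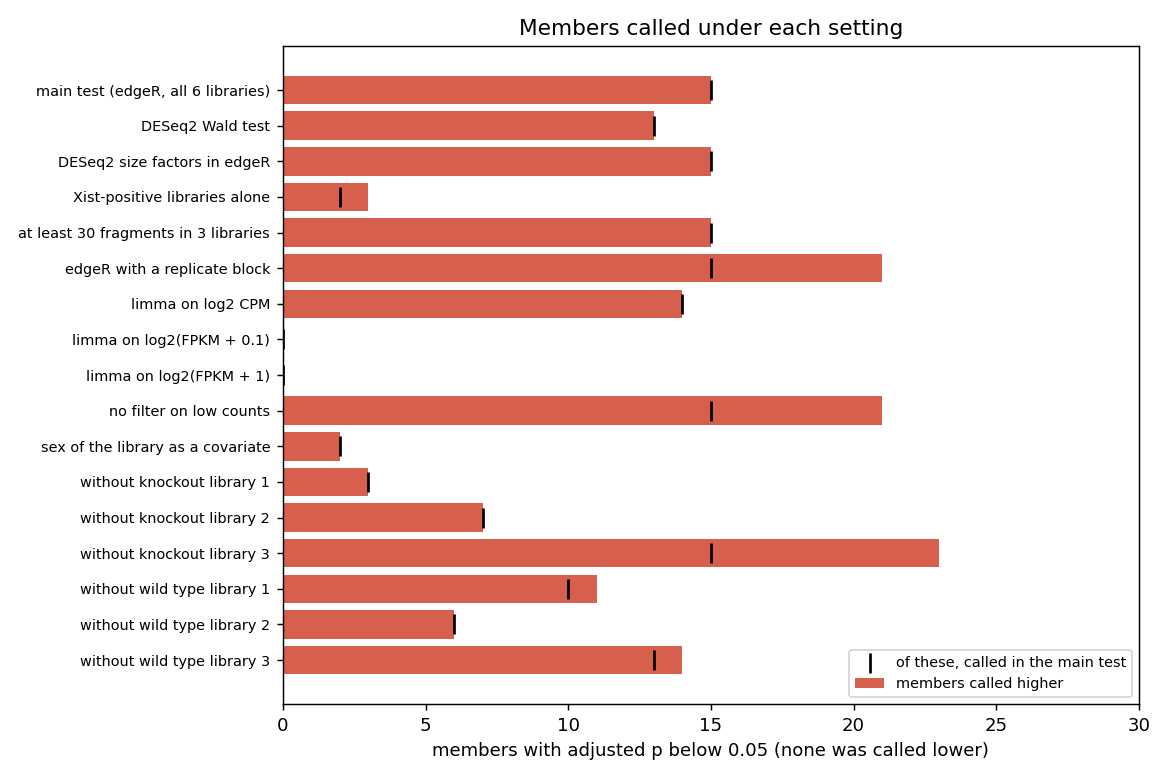
Number of members called higher under each test, filter and choice of libraries; bars give the members with an adjusted p below 0.05, and the black tick those that are also among the 15 of the main test. The count ran from 0 with limma on FPKM to 23 without knockout library 3, and no setting called a member lower.

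Expression per transcript length gives the order of levels in the wild type eye. Ifitm2 and Ifitm3, small membrane proteins that hinder viral entry, stood highest at 147 ± 22.1 and 93.1 ± 25.2 FPKM (SD, n = 3). Bst2, Irf3 and Irf1 followed at 23.7 ± 7.86, 19.8 ± 3.65 and 18.2 ± 1.14 FPKM. Among these 3, the ranges of mean ± SD of neighbours overlapped, and differences between genes were not tested. The dynamin-like GTPase genes Mx1 and Mx2 stood lowest at 0.302 ± 0.234 and 0.412 ± 0.0304 FPKM. In the knockout, Ifitm2 and Ifitm3 were still the highest at 148 ± 17.7 and 118 ± 22.9 FPKM.

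Both receptor chains were present at like levels in both genotypes. Ifnar1 stood at 72.4, 71.0 and 70.5 CPM in wild type libraries 1 to 3 and at 73.2, 64.2 and 75.4 CPM in knockout libraries 1 to 3 (adjusted p = 0.998). Ifnar2, which also exists as a soluble form, stood at 16.9, 18.5 and 18.2 CPM in wild type and at 21.9, 18.3 and 20.3 CPM in knockout (log2 fold change 0.19 ± 0.10, SE; adjusted p = 0.328). For both genes the groups overlapped. Below, libraries are always given in the order of libraries 1 to 3, and a fold change is the log2 of knockout over wild type ± SE.

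Of the 6 transcription factors on the list, Irf9 and Irf1 rose. Irf9, the DNA-binding subunit of the factor that type I interferon activates, stood at 21.9, 23.0 and 23.2 CPM in wild type and at 36.5, 41.7 and 35.9 CPM in knockout. Every knockout library lay well above every wild type library, and the log2 fold change was 0.74 ± 0.08 (adjusted p = 3.99e-05, and 0.00175 with sex as a covariate). The gene lies at chr14:56222822-56228867 in mm9. Irf1, a factor that responds strongly to interferon gamma, stood at 39.2, 37.7 and 39.0 CPM in wild type and at 54.2, 45.1 and 46.3 CPM in knockout. Its groups did not overlap either, and its log2 fold change of 0.33 ± 0.08 was the smallest of the 15 (adjusted p = 0.0183, and 0.548 with sex as a covariate).

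The other factors did not pass. Stat2, the partner of Irf9, stood at 26.8, 22.8 and 25.4 CPM in wild type and at 38.05, 32.0 and 27.3 CPM in knockout (0.37 ± 0.11, adjusted p = 0.0672), without overlap. Irf7, which amplifies interferon production, stood at 11.7, 13.3 and 14.5 CPM in wild type and at 17.8, 18.4 and 12.6 CPM in knockout (0.30 ± 0.14, adjusted p = 0.256), with library 3 inside the wild type range. Both genes are known targets of interferon. Irf3, the factor that starts interferon production and is present before any stimulus, stood at 34.4, 34.7 and 36.1 CPM in wild type and at 29.4, 32.4 and 30.01 CPM in knockout (−0.20 ± 0.08, adjusted p = 0.157). Irf5, which acts downstream of Toll-like receptors in myeloid cells, stood at 5.76, 6.56 and 6.51 CPM in wild type and at 7.38, 5.34 and 5.76 CPM in knockout, with overlap (adjusted p = 0.998).

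Among transcripts, 1 of Irf9 passed. NM_008394 had 88, 58 and 26 estimated fragments in wild type and 96, 90 and 117 in knockout, or 3.20 to 4.11 CPM and 11.1 to 15.6 CPM. Its log2 fold change was 1.72 ± 0.20 (adjusted p = 0.0197 over 16546 isoforms), and it passed with sex as a covariate too. NM_001159418, which starts elsewhere, had 319, 194 and 151 fragments in wild type and 161, 152 and 229 in knockout (0.51 ± 0.17, adjusted p = 0.283). NM_001159417, which shares the start of NM_008394, had 64, 74 and 13 fragments in wild type and 55, 0 and 34 in knockout. Fragments of overlapping transcripts are divided by estimation, and NM_008394 did not pass in any of the 6 fits that leave out 1 library. Of 44 member isoforms tested from 39 genes, 1 was called higher and none lower (21 had an unadjusted p under 0.05), where 0.55% and 1.02% of all isoforms were called.

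Of the 4 sensors of nucleic acid, Ddx58 rose. Ddx58, which encodes RIG-I, a detector of short double-stranded RNA with a 5′ triphosphate, stood at 22.6, 21.0 and 22.3 CPM in wild type and at 31.4, 26.5 and 27.3 CPM in knockout, without overlap (0.37 ± 0.09, adjusted p = 0.0211). The other 3 did not pass, and in each of them every knockout library lay above every wild type library, which 11.6% of all genes did. Ifih1, which encodes MDA5, the sensor of long double-stranded RNA, had a log2 value of 0.35 ± 0.11 (adjusted p = 0.0598). Dhx58, the regulatory relative LGP2, had 0.71 ± 0.22 (adjusted p = 0.0733), and Zbp1, a sensor of Z-form nucleic acid that can start necroptosis, had 0.65 ± 0.28 (adjusted p = 0.211) at 1.02 to 2.11 CPM.

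Among the 10 effectors that act on RNA and nucleotides, Oasl2 and Eif2ak2 rose. Oasl2, a relative of the oligoadenylate synthetases that make the messenger activating RNase L, stood at 21.8, 22.6 and 25.7 CPM in wild type and at 37.0, 39.1 and 27.1 CPM in knockout, with library 3 just above the wild type range (0.55 ± 0.12, adjusted p = 0.00923, and 0.0417 with sex as a covariate). Eif2ak2, the kinase PKR that stops translation when it binds double-stranded RNA, stood at 19.1, 20.9 and 21.0 CPM in wild type and at 30.4, 26.01 and 24.6 CPM in knockout, without overlap (0.42 ± 0.10, adjusted p = 0.0166). Ifit1, which binds RNA lacking a methylated cap, stood at 9.53, 14.6 and 12.6 CPM in wild type and at 20.5, 24.1 and 12.6 CPM in knockout. Knockout library 3 lay within the wild type range (0.62 ± 0.20, adjusted p = 0.0858).

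The remaining members of this class did not pass. Ifit3 and Ifit2, neighbours of Ifit1 on chromosome 19, had log2 fold changes of 0.26 ± 0.12 and 0.12 ± 0.10. Samhd1, which depletes deoxynucleotides, had 0.26 ± 0.08 (adjusted p = 0.0705) without overlap. Oas1a, Oas1b and Oas2 had 1.23 to 5.34 CPM across libraries and log2 fold changes of 0.22 ± 0.24, 0.65 ± 0.26 and 0.05 ± 0.29. These 3 are neighbouring paralogs on chromosome 5 that may share reads. Adar, the enzyme that edits adenosine in double-stranded RNA, stood at 85.03, 84.3 and 77.5 CPM in wild type and at 85.5, 77.0 and 69.7 CPM in knockout (−0.10 ± 0.08, adjusted p = 0.56), and neither of its 2 tested isoforms passed.

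**Figure D3:**
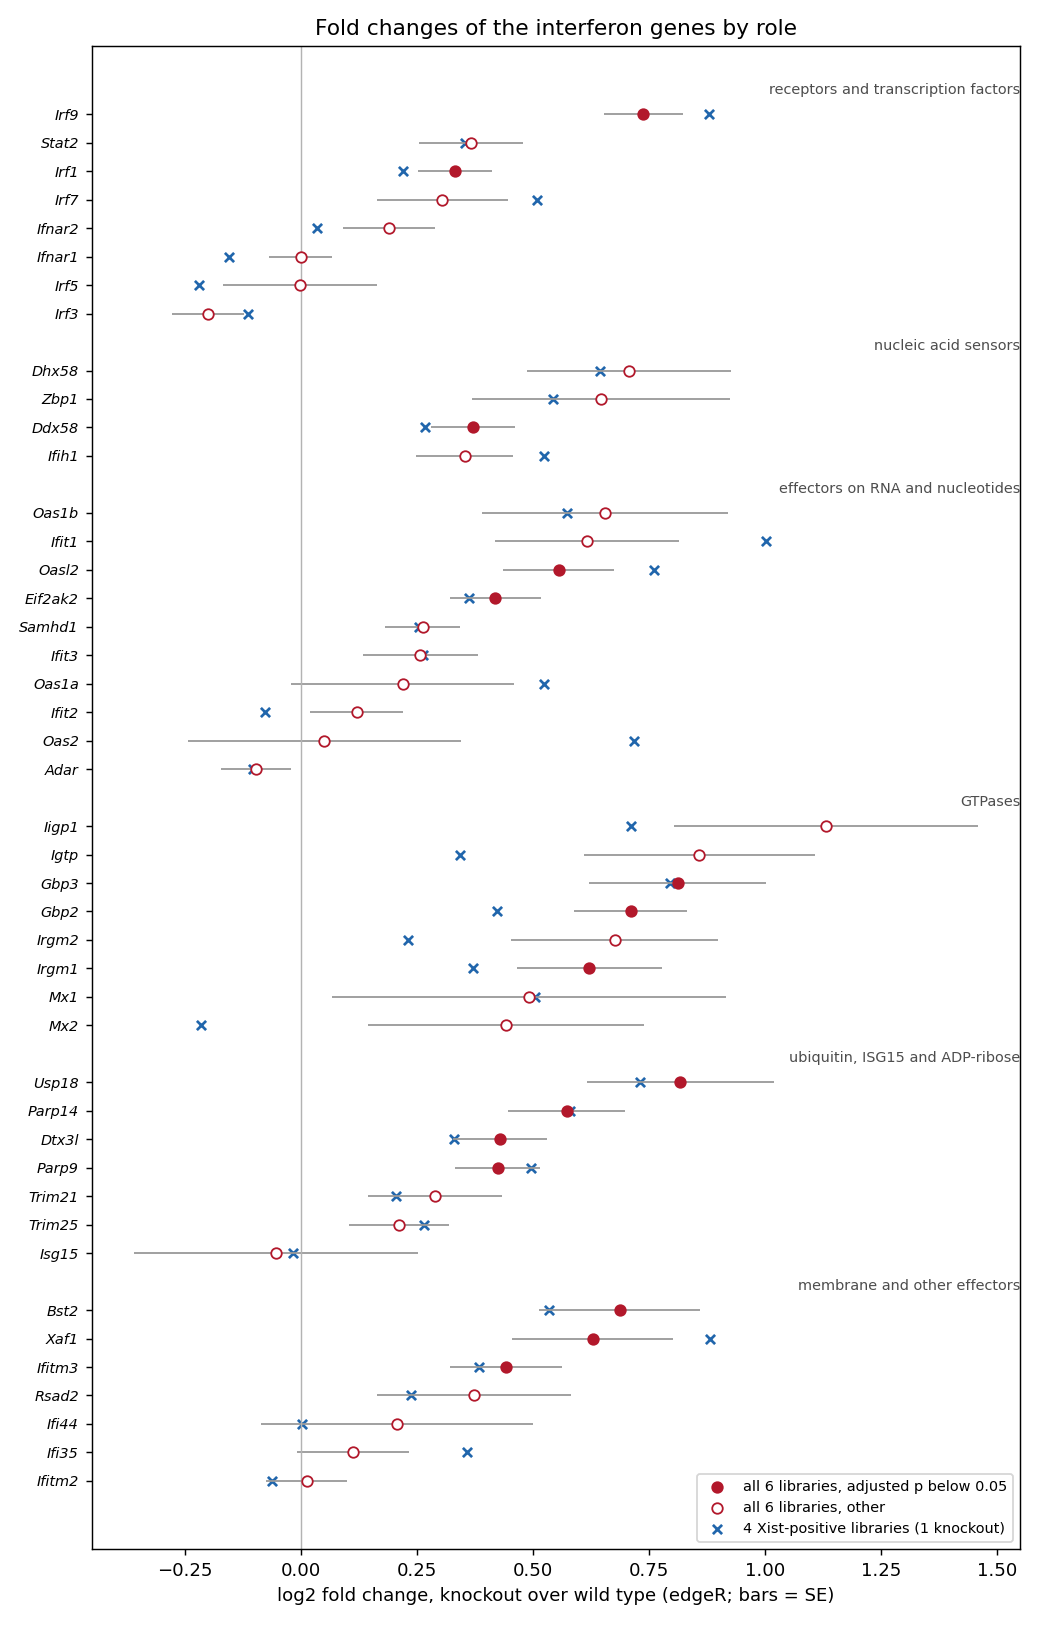
Log2 ratio of knockout to wild type for the 44 genes by role; circles are the edgeR estimates from all 6 libraries with bars of 1 SE, filled where the adjusted p is below 0.05, and crosses are the estimates from the 4 Xist-positive libraries, of which 1 is knockout. The median in the GTPases was 0.69 with all libraries and 0.40 in the Xist-positive ones.

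Of 8 interferon-inducible GTPases 3 rose, and their median log2 fold change was 0.69, against 0.40 in the Xist-positive libraries. Gbp2, a guanylate-binding protein that coats vacuoles holding microbes, stood at 15.1, 14.1 and 17.2 CPM in wild type and at 29.4, 20.5 and 24.3 CPM in knockout, without overlap (0.71 ± 0.12, adjusted p = 0.00163). Gbp3, its neighbour on chromosome 3, stood at 10.5, 11.1 and 15.5 CPM in wild type and at 27.7, 20.7 and 14.8 CPM in knockout (0.81 ± 0.19, adjusted p = 0.0166). It was the single gene among the 15 whose groups overlapped, and it did not pass in DESeq2 (adjusted p = 0.166). Irgm1, a regulator of the immunity-related GTPases and of autophagy, stood at 15.1, 17.1 and 17.4 CPM in wild type and at 33.7, 21.2 and 20.3 CPM in knockout (0.62 ± 0.16, adjusted p = 0.024).

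The 2 largest fold changes of all members belonged to GTPases that did not pass. Iigp1, an effector that disrupts the vacuoles of parasites, stood at 5.30, 4.94 and 6.51 CPM in wild type and at 21.1, 8.96 and 5.95 CPM in knockout (1.13 ± 0.33, adjusted p = 0.0537). Igtp, also called Irgm3, stood at 6.09, 7.26 and 9.09 CPM in wild type and at 20.3, 9.13 and 9.34 CPM in knockout (0.86 ± 0.25, adjusted p = 0.0538). In both, knockout library 1 stood far above the other 2 knockout libraries. Knockout library 1 was also the highest for Irgm2, with 12.4, 9.66 and 13.5 CPM in wild type and 28.4, 13.8 and 13.6 CPM in knockout (0.68 ± 0.22, adjusted p = 0.0925).

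Knockout library 1 held the highest knockout value for 7 of the 8 GTPases. Their sum stood at 66.3, 66.9 and 80.8 CPM in wild type and at 164, 96.6 and 91.5 CPM in knockout. Without that library, the log2 fold change was 0.57 ± 0.12 for Gbp2, 0.53 ± 0.18 for Gbp3 and 0.34 ± 0.11 for Irgm1, and 0.39 ± 0.21, 0.36 ± 0.18 and 0.22 ± 0.15 for Iigp1, Igtp and Irgm2. Of these 6, Gbp2 passed (adjusted p = 0.0143). Mx1 and Mx2 had log2 fold changes of 0.49 ± 0.42 and 0.44 ± 0.30 at 0.491 to 1.99 CPM, a depth at which a difference of this size was not detectable.

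Of 7 genes that attach or remove ubiquitin, ISG15 and ADP-ribose, 4 rose. Usp18, the protease that takes ISG15 off proteins and also brakes the type I receptor, stood at 3.77, 3.46 and 4.05 CPM in wild type and at 8.55, 6.20 and 5.10 CPM in knockout, without overlap (0.82 ± 0.20, adjusted p = 0.0222). Parp14, an ADP-ribosyltransferase, stood at 19.6, 17.5 and 20.9 CPM in wild type and at 34.5, 28.8 and 23.0 CPM in knockout (0.57 ± 0.13, adjusted p = 0.0112). Its groups did not overlap either, with knockout library 3 nearest to the wild type libraries.

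Parp9 and Dtx3l, whose proteins work as one complex, changed by like amounts. Parp9 stood at 19.1, 21.2 and 20.3 CPM in wild type and at 27.98, 28.4 and 25.01 CPM in knockout (0.42 ± 0.09, adjusted p = 0.00954). Dtx3l, its E3 ubiquitin ligase partner, stood at 23.4, 22.9 and 19.8 CPM in wild type and at 34.1, 28.1 and 27.8 CPM in knockout (0.43 ± 0.10, adjusted p = 0.0161). Neither overlapped between groups. The files give both genes one shared locus, chr16:35926601-35972691 in mm9, with Parp14 beside it at chr16:35832964-35871468, so the 2 values may not be separate measurements. Parp9 was the 1 gene of the 15 without a q-value below 0.05 in the authors' deposited table (0.143).

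Isg15 itself did not pass. This ubiquitin-like modifier stood at 2.56, 4.94 and 5.28 CPM in wild type and at 5.39, 3.96 and 2.45 CPM in knockout, with full overlap (−0.05 ± 0.31, adjusted p = 0.952). The difference between Isg15 and the other members was not tested. Trim25 and Trim21, ubiquitin ligases that act with RIG-I and with antibody-coated virus, had log2 fold changes of 0.21 ± 0.11 and 0.29 ± 0.14 and did not pass.

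Of the 7 measured membrane and other effectors, Bst2, Ifitm3 and Xaf1 rose. Bst2, or tetherin, which holds budding virus at the cell surface, stood at 10.2, 11.6 and 13.1 CPM in wild type and at 24.7, 16.5 and 14.0 CPM in knockout (0.69 ± 0.17, adjusted p = 0.0251). Xaf1, a promoter of cell death that binds XIAP, stood at 4.79, 4.94 and 5.65 CPM in wild type and at 8.43, 9.30 and 6.23 CPM in knockout (0.63 ± 0.17, adjusted p = 0.0416), and it did not pass in DESeq2 (adjusted p = 0.0817). In neither gene did the groups overlap.

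Of the closely related pair Ifitm3 and Ifitm2, Ifitm3 rose. Ifitm3 stood at 35.6, 34.1 and 37.3 CPM in wild type and at 60.4, 46.5 and 38.6 CPM in knockout, without overlap (0.44 ± 0.12, adjusted p = 0.0386). Ifitm2 stood at 60.8, 56.1 and 60.9 CPM in wild type and at 69.3, 56.8 and 53.1 CPM in knockout (0.01 ± 0.09, adjusted p = 0.96). Such paralogs may share reads. Ifitm3 was the least stable of the 15, passing in 1 of the 6 fits that leave out a library. Rsad2 or viperin (0.37 ± 0.21), Ifi35 (0.11 ± 0.12) and Ifi44 (0.21 ± 0.29) did not pass.

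Set side by side, receptors and transcription factors had a median log2 fold change of 0.25 with 2 of 8 called, and sensors and effectors 0.44 with 13 of 36 called. In the Xist-positive libraries the medians were 0.13 and 0.38. With sex as a covariate, 1 gene of each class passed, Irf9 and Oasl2, so that no sensor, GTPase, membrane effector or gene of ubiquitin, ISG15 and ADP-ribose did. Knockout library 2 carries the comparison in that fit, so a call missing there does not show the lack of a change. The difference between these classes was not tested.

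Promoter windows from RefSeq (GRCm38.p6, 250 bases before to 50 after each start) were found for 34 of the 45 genes. The ISRE core GAAANNGAAA, searched on both strands, occurred in 18 of the 34 (52.9%), against 3.99% of all 27025 genes with a window. It occurred in 7 of the 12 matched genes that rose and in 11 of the 22 that did not pass, so genes of both kinds held it. The GAS letters TTCNNNGAA, which read alike on both strands, occurred in 13 of the 34 (38.2%), against 9.55% of all genes, and in 4 of the 12 that rose and 9 of the 22 others. Irf9, Oasl2, Dtx3l and Xaf1 rose and have neither run of letters in this window, whereas Irf1 has the GAS letters 90 bases before its start.

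The stretches below, printed 5′ to 3′ on the strand of the gene with the ISRE and GAS letters in capitals, are examples from genes that rose and genes that did not pass. Where the core lies on the other strand it reads TTTC on both sides. Gbp2 (chr3:142620579-142620638, plus strand) and Gbp3 (chr3:142559974-142560039, plus strand) rose, as did Irgm1 (chr11:48871421-48871475, minus strand) and Bst2 (chr8:71537562-71537633, minus strand). Igtp (chr11:58199486-58199555, plus strand), Irgm2 (chr11:58214877-58214947, plus strand) and Isg15 (chr4:156200850-156200921, minus strand) did not pass.
Gbp2: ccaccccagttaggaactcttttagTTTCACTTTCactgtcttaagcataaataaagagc
Gbp3: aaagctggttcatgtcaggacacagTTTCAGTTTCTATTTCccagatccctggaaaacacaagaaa
Irgm1: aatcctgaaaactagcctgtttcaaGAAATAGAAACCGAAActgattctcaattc
Bst2: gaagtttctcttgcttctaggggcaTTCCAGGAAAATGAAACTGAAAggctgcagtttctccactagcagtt
Igtp: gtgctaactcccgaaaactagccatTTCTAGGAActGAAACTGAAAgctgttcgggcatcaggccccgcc
Irgm2: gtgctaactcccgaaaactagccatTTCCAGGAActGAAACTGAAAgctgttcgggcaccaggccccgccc
Isg15: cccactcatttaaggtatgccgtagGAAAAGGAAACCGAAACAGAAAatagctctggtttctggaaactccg

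Gbp3, Irgm1 and Bst2 each carry 2 overlapping ISRE cores and Isg15 carries 3, at 78, 72 and 66 bases before its start. In Bst2 the GAS letters run into the first core. Igtp and Irgm2, which lie side by side on chromosome 11, carry a GAS followed by an ISRE core in nearly the same letters. A match in letters shows neither binding nor use of the site in these eyes.

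**Figure D4:**
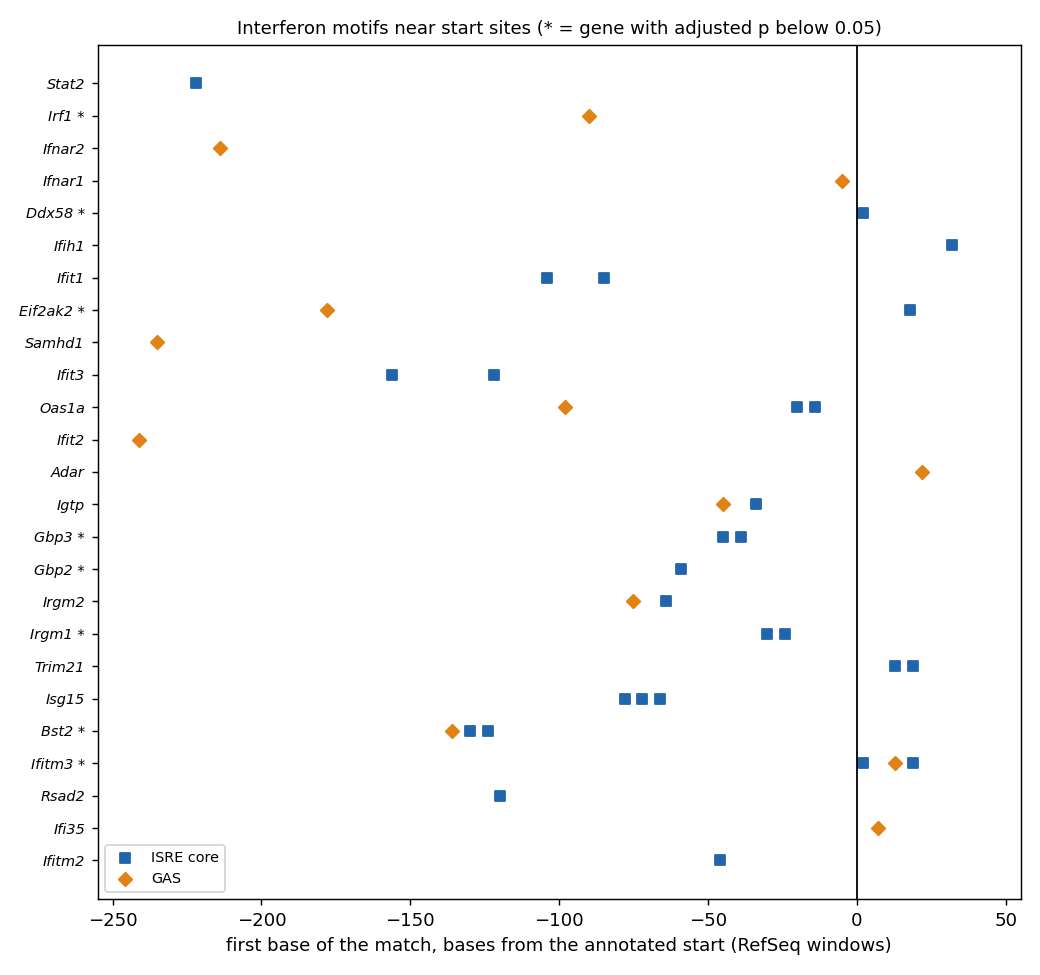
Position of ISRE core (blue squares) and GAS (orange diamonds) letters in the RefSeq promoter windows of the 25 members with at least 1 match, as bases from the annotated start at 0; an asterisk marks genes with an adjusted p below 0.05. Genes with and without an asterisk carry both kinds of match.

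Upstream, interferon transcripts were barely seen. Of 23 ligand genes listed, 19 were in the table and none had enough fragments to be tested. Ifnk had 0, 2 and 1 fragments in wild type and 3, 1 and 0 in knockout, and Ifnz had 1, 4 and 0 in wild type and 0, 0 and 1 in knockout. Ifna13 had 1 fragment in each of 2 libraries, and Ifng 1 fragment in knockout library 2. At this depth a difference in ligand transcripts was not detectable.

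The rest of the pathway was read from lists of known genes that hold no member. None of 7 other receptor chains and kinases was called by edgeR (none had an unadjusted p under 0.05), among them the interferon gamma receptor genes Ifngr1 and Ifngr2 and the kinase genes Jak1 and Tyk2. None of 13 genes that lead from nucleic acid to interferon production was called (3 had an unadjusted p under 0.05), and the nearest was Tlr3, the endosomal receptor for double-stranded RNA (0.46 ± 0.13, adjusted p = 0.053). All 13 had a log2 fold change above 0, against 50.6% of all genes. Their median was 0.18, and 0.07 in the Xist-positive libraries. In 4 of the 13 every knockout library lay above every wild type library, which 11.6% of all genes did.

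Of 6 other transcription factors 2 rose, and 1 passed with sex as a covariate, where 2.89% and 0.61% of all genes were called higher. Stat3, which carries signals of the interleukin 6 family, changed by 0.83 ± 0.06 on the log2 scale (adjusted p = 1.7e-07), and Irf8, a factor of myeloid cells, 0.77 ± 0.20 (adjusted p = 0.0266). Of 9 brakes on interferon signalling 1 rose, Socs3, which also brakes Stat3, at 7.11, 6.63 and 7.37 CPM in wild type and 16.2, 17.1 and 18.5 CPM in knockout (1.30 ± 0.12, adjusted p = 3.14e-06). The knockout libraries of Socs3 lay close together, and Stat3 and Socs3 were the genes of these 2 lists that passed with the sex term.

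A further list of 42 tested interferon-stimulated genes had a median log2 fold change of 0.41, with 10 called higher and 1 lower. Over all genes 2.89% were called higher and 3.35% lower. By smallest p the calls began with Gbp9 (1.16 ± 0.17), Gbp6 (0.98 ± 0.17), the ligase gene Herc6 (0.71 ± 0.14) and Gbp7 (0.57 ± 0.13). The lower one was Tdrd7, a granule protein needed by the lens (−0.28 ± 0.06, adjusted p = 0.0137). With the sex term in the fit, where 0.61% of all genes were called higher, all 11 missed the threshold. Knockout library 1 was again the highest knockout library for most, 26 of 42.

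**Figure D5:**
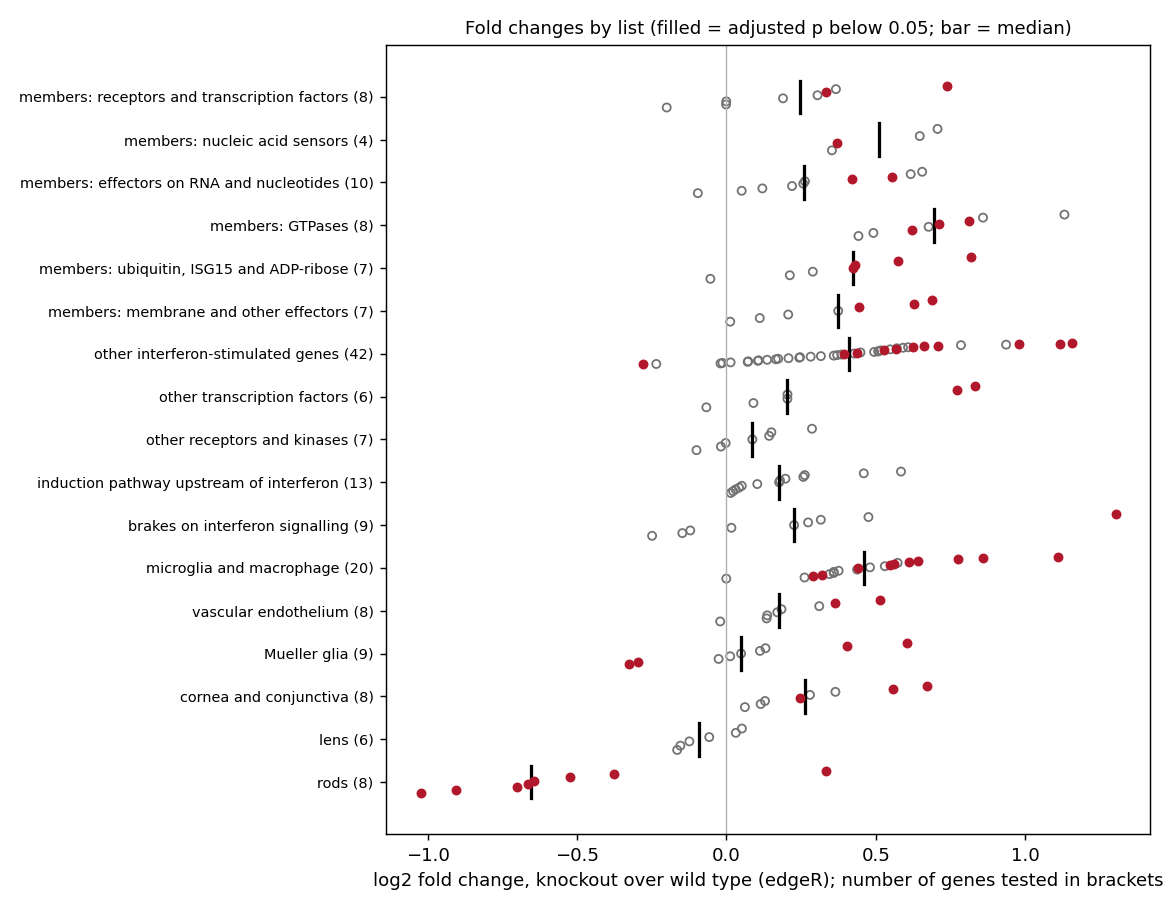
Log2 fold change of each tested gene by list, with the number tested in brackets; filled points have an adjusted p below 0.05 and the black bar is the list's median. The members' classes and the further interferon-stimulated genes lie mostly above 0, as do microglia and macrophage markers, whereas rod markers lie mostly below.

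Markers of some other cells were also higher in the knockout. Beside the counts below, 2.89% of all genes were called higher and 3.35% lower, and 0.61% higher with sex as a covariate. Of 20 microglia and macrophage markers, all tested, 10 rose and none was called lower, with a median log2 fold change of 0.46, and with sex as a covariate 2 passed (Ctss and Mpeg1). Their sum was 329 to 364 CPM in wild type and 518, 466 and 464 CPM in knockout, and knockout library 1 held the highest knockout value for 15 of the 20. By sum, the 3 knockout libraries stood in the same order as for the members. Knockout library 2 was lowest for 9 markers and library 3 for 8, and library 3 was lowest for 30 of the 44 members. The median log2 ratio of the markers to the wild type mean was 0.65, 0.36 and 0.42 in knockout libraries 1 to 3. For the members it was 0.52, 0.35 and 0.19. Among the defining ones, Tmem119 stood at 17.1 to 19.2 CPM in wild type and 16.5 to 19.3 CPM in knockout, while Cx3cr1 rose (0.64 ± 0.11). Of 8 markers of cornea and conjunctiva, 3 rose, while with the sex term none passed. Their sum was 4368 to 4933 CPM in wild type and 5530, 5278 and 5152 CPM in knockout. Knockout library 1 was highest for 6 of these 8 and library 3 lowest for 6, the same order as in the members. Their median log2 ratio to the wild type mean was 0.34, 0.23 and 0.17 in knockout libraries 1 to 3. Of 8 markers of vascular endothelium, 2 rose (Pecam1 and Kdr, of which Kdr also passed with the sex term) and none was called lower. Their sum was 281 to 307 CPM in wild type and 361 to 373 CPM in knockout, without overlap. Of these, 3 were highest in knockout library 1, 4 in library 2 and 1 in library 3. The 10 markers of T, NK and B cells summed to 2.24 to 3.40 CPM in any library, with Cd3e and Cd3d at 0 to 2 fragments. Of 4 tested markers of plasmacytoid dendritic cells 1 rose, and with the sex term 0 passed. Siglech, a marker of these cells that microglia share, had 0.930 to 2.93 CPM (0.96 ± 0.31, adjusted p = 0.0794). Of 9 Mueller glia markers 2 rose and 2 were called lower, with a median log2 fold change of 0.05, and 1 passed with the sex term. Their sum was 4310 to 4470 CPM in wild type and 4035 to 4154 CPM in knockout. Of 6 lens markers none was called (1 had an unadjusted p under 0.05), with a median of −0.09. The part of microglia, of Mueller glia, of surface epithelium and of vascular endothelium in the interferon result was not tested.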

How the data were processed

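Whole-eye RNA was measured in 6 libraries, 3 wild type and 3 knockout. The submitters' processing notes name build mm9, Cuffdiff 2.2.1, Cufflinks 2.2.1 and TopHat2 2.0.12. Read strand is not given in the sources used here, so overlapping genes cannot be told apart. Fragments per gene and isoform are unscaled estimated counts that the authors deposited, per the file headers. Within a tolerance of 1e-06, 98.5% of gene and 71.7% of isoform values were whole, and all were rounded. They also deposited FPKM, which carry their own scaling, and a gene comparison with FPKM per group and q-values. The tables number the libraries of a genotype from 0 and the labels from 1. Libraries are called 1 to 3 here in the tables' order, and which labelled replicate each is was not stated, so a number only names a library.

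Genes were tested with edgeR 4.0.16 (R 4.3.3; TMM scaling; filterByExpr with minimum count 10 and minimum total 15; quasi-likelihood F test) comparing knockout with wild type in all 6 libraries, with Benjamini-Hochberg adjustment over all 14919 genes. Isoforms needed a mean FPKM of at least 1. The SE is the size of the log2 fold change over the square root of F. CPM use TMM factors. DESeq2 1.42.0 and limma 3.58.1 served as alternatives, with limma on genes of mean FPKM at least 0.5, which took 42 members. The code was tested on simulated data. Sex was read from Xist and Y-linked fragments. Positions marked mm9 come from the deposited tables and count from 1, and promoters are from RefSeq GRCm38.p6, so no position was carried between builds. The members and all gene lists were chosen with earlier results of these data known. Every member may be named, with library values for those that passed and for receptors and factors, and other lists by calls. Total depth limits genes of few fragments, whose counts are not independent molecules. One gene of the transcription factor list is not reported here.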

Additional observations from a re-analysis of the deposited data

How the results depend on the processing

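The members called higher numbered 15 in the main test, 13 to 15 with DESeq2, DESeq2 size factors, the stricter filter (39 members tested) and limma on log2 CPM, and 21 with no filter. They numbered 0 with limma on log2(FPKM + 1) and 0 on log2(FPKM + 0.1), 3 in the Xist-positive libraries, 2 with the sex covariate and 3 to 23 when leaving out 1 library. No member was called lower in any of these. The cause of the differences was not tested, beyond the fewer libraries in some fits. All genes called higher and lower numbered 431 and 500 in the main test, 14 and 4 with limma on log2(FPKM + 1), 6 and 3 on log2(FPKM + 0.1), 96 and 149 in the Xist-positive libraries, 91 and 144 with the sex covariate, and 271 to 425 and 315 to 460 when leaving out 1 library. The members' median log2 fold change ran from 0.26 to 0.48 when leaving out 1 library and from 0.31 to 0.40 otherwise.

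Deviations from the group mean correlated at 0.132, 0.0657 and −0.0489 in same-numbered libraries, and at −0.1655 to 0.0943 in pairs of unlike number. With 3 libraries per genotype, these values cannot show whether libraries were paired. With the number as a replicate block, 558 genes in all were called higher and 611 lower, and 21 members were called higher and 0 isoforms of members, against 1 isoform in the main test and 0 to 0 when leaving out 1 library.

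Signs turned in 8 genes, none of which passed in the main test. In the Xist-positive libraries and with the sex covariate, the log2 fold change was −0.077 and −0.075 for Ifit2, −0.061 and −0.059 for Ifitm2, and −0.22 and −0.21 for Mx2. It was −0.0079 for Ifi44 on log2(FPKM + 1) and −0.011 for Oas2 on log2(FPKM + 0.1). With the stricter filter it was 0.0014 for Ifnar1 and 0.00090 for Irf5, and with the block 0.0058 for Irf5. Leaving out 1 library gave −0.049 to 0.058 for Ifnar1, −0.15 to 0.067 for Irf5, −0.28 to 0.29 for Oas2, −0.40 to 0.26 for Isg15, −0.12 to 0.10 for Ifitm2 and −0.10 to 0.52 for Ifi44. Counts of few fragments limit Mx1, Mx2, Oas1a, Oas1b, Oas2, Zbp1 and Ifi44.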

Other observations

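Read as whole families by symbol, a choice made after values were seen, the guanylate-binding proteins held more calls than the other families read this way. Over all tested genes 2.89% were called higher. The table has 11 Gbp genes, of which 7 were tested and 6 were called higher. The seventh, Gbp5, stood at 1.91, 1.55 and 1.23 CPM in wild type and at 4.45, 3.10 and 2.08 CPM in knockout (0.94 ± 0.29, adjusted p = 0.0724). Knockout library 1 was the highest knockout library for all 7, and none of them passed with sex as a covariate. With that term the log2 fold change was 1.05 for Gbp9, 0.85 for Gbp6 and 0.80 for Gbp3, against 1.16, 0.98 and 0.81 without it, and 0.33 for Gbp4 against 1.11. Gbp4 rose least evenly, with 2.23, 2.47 and 2.95 CPM in wild type and 8.78, 3.10 and 3.87 CPM in knockout (1.11 ± 0.31, adjusted p = 0.0423). Of 7 tested oligoadenylate synthetase genes 1 was called higher, Oasl2, and of 3 tested Ifitm genes 1, Ifitm3. Of 3 Ifit genes, 6 Schlafen genes and 2 Trim30 genes none was called by edgeR, with 1, 3 and 2 at an unadjusted p under 0.05. The immunity-related GTPases and the Parp genes were not read as families. Paralogs in these families may share reads, and differences between families were not tested.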
